A study of Mus musculus with 24 samples.

Results

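The comparison concerned how the response of the liver to a distant tumor differed between 72 h and 18 h after the tumor cells were injected. It used 8 biological pairs of livers, 4 at 72 h and 4 at 18 h, out of 12 pairs in the series. The pairs were chosen by the time point in their labels, and no measured value entered the choice. Each pair set the liver RNA of male C57Bl/6 mice that received 1e+06 LL/2(LLC1) cells against the liver RNA of mice that received the vehicle alone. The cells were placed under the skin, and the vehicle for cells and controls was phosphate-buffered saline (PBS) at 300 µl. All mice were 8 weeks old at the injection and carried no engineered allele per the labels, and tumor and PBS livers of a pair were taken at the same time. LL/2(LLC1) derives from the Lewis lung carcinoma, which arose in this mouse strain. The labels do not say whether a liver sample came from 1 animal or from several, nor how large a tumor had grown by either time, so p-values measure the spread between the pairs as deposited.

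A growing tumor can alter the liver long before it spreads there, because the liver answers circulating cytokines. Interleukin-6 and related ligands act through the shared receptor gp130 and raise the acute phase proteins of the plasma, and a liver that secretes more protein also draws on the folding and export machinery of the endoplasmic reticulum (ER). Unfolded protein in the ER sets off the unfolded protein response, whose sensors Ern1, Atf6 and Eif2ak3 raise chaperones and the proteins that carry misfolded chains out to the proteasome. The comparison asked which transcripts had a tumor effect at 72 h that differed from the effect at 18 h.

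The RNA of each pair was hybridised on dual-colour oligonucleotide arrays printed in house, and again with the dyes exchanged, which gave 2 arrays a pair and 16 arrays for both times. The 2 arrays of a pair were averaged and counted as 1 replicate. The tumor effect is the deposited log ratio of tumor over PBS, and a difference is the effect at 72 h minus the effect at 18 h. The base of the logarithm is not stated, and against the log2 ratios of the scans the brightest spots had slopes of 0.284 to 0.823 (median 0.649) over the 24 arrays. Values are therefore given in deposited log ratio units and not as folds. The direction takes the first scan channel, A, to be the Cy3 signal, an assignment no file or label gives, and all signs are opposite if it was Cy5.

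The pairs differed widely in how much of the array they measured. Of the 2140 probes that had a value from at least 3 of 4 pairs at each time, pairs 1 to 4 held 2133, 2101, 614 and 2089 at 72 h and 2093, 818, 2111 and 2126 at 18 h. Pair 3 at 72 h and pair 2 at 18 h thus stood apart, and only 323 probes had a value in all 8 pairs. Across the tested probes, which are no independent replicates, the correlation between the dye-swapped arrays of a pair was 0.02, 0.12, -0.12 and 0.001 at 72 h (pairs 1 to 4) and 0.29, -0.21, 0.22 and 0.03 at 18 h. Over all 24 arrays of the series and all probes, the median correlation was -0.24 between arrays of different dye orientation. It was 0.27 between arrays of the same orientation, whereas the mean of a dye-swapped pair holds both orientations equally. The tested probes named 1969 genes. Hepatocyte markers on the array had values on a median of 14 of 16 arrays, against a median of 10 over all probes. The median was 14 for sinusoidal endothelium, 13.5 for Kupffer cells and macrophages and 10 for neutrophil, lymphocyte and cholangiocyte markers. Fabp1, an abundant fatty acid binding protein of hepatocytes, had a value on only 3 arrays.

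No transcript passed the test for a difference between the tumor effects at 72 h and 18 h. Limma called 0 of 2140 probes (0%), and the smallest Benjamini-Hochberg adjusted p was 0.999988. At an unadjusted p under 0.05 there were 55 probes (2.57%), 24 of them higher and 31 lower at 72 h, where 107 are expected with no difference at all. The median difference over all tested probes was -0.0062, with 994 higher and 1146 lower, and the 5th and 95th percentiles were -0.16 and 0.16. The log2 ratios computed from the scans, over 3339 probes, gave 0 called as well, with 144 at that p (38 higher, 106 lower).

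The median standard error (SE) of a difference was 0.090 and the median 95% interval reached 0.20 units to each side of it. The 95% interval lay wholly within 0.5 units of 0 for 1957 probes (91.4%). These are deposited units, of which 0.5 is no known fold, and in log2 ratios from the scans the median SE was larger, 0.22. Only 12 probes had a difference beyond 0.5 units, 9 higher and 3 lower, the lower ones being Alas1, Lifr and Grcc10. Over all tested probes the differences ran from -0.53 to 0.78. Without pair 3 at 72 h the count at an unadjusted p under 0.05 was 53, and without pair 2 at 18 h it was 61, with 0 called in both.

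**Figure D1:**
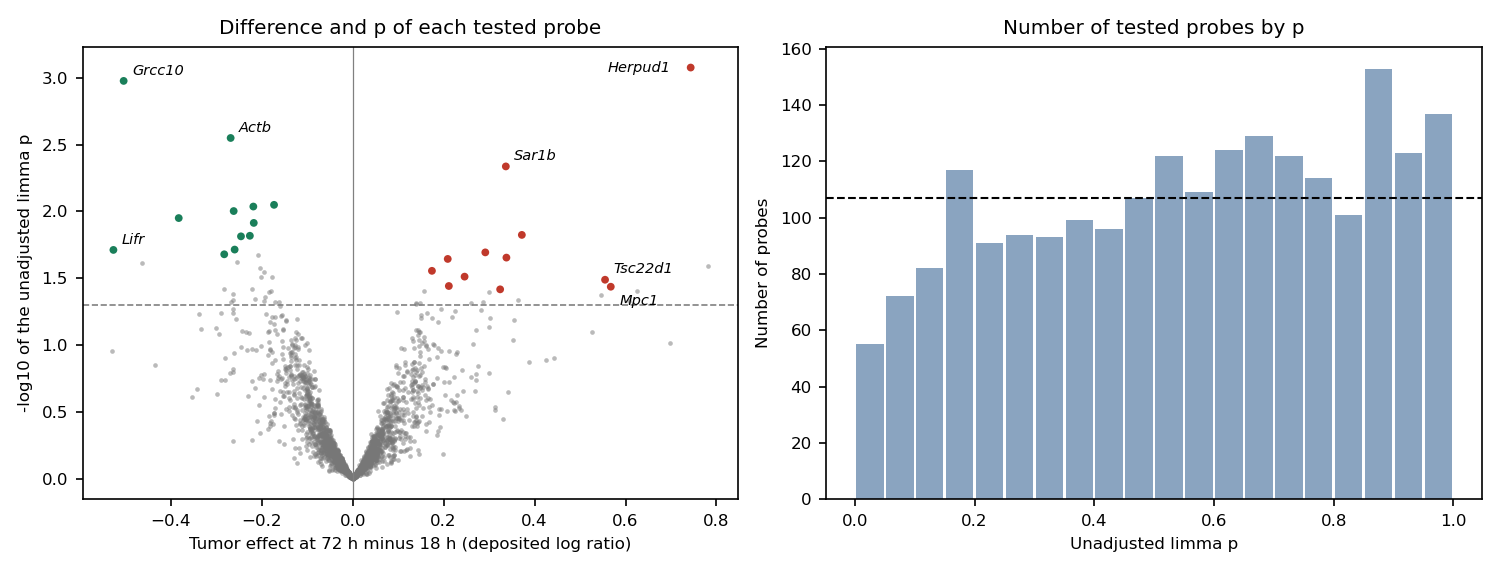
Left, each point is a tested probe, with the difference of tumor effects (72 h minus 18 h, deposited log ratio units) on the x axis and -log10 of the unadjusted limma p on the y axis, the dashed line marking a p of 0.05 and colours the 12 genes of smallest p on each side. Right, bars count the probes by p in steps of 0.05 against the 107 expected per bar with no difference (dashed line). The first bar holds 55 probes, below that line.

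Few probes had pairs that were separate between the times. Among the 323 probes with all 8 pairs measured, the 4 pairs at 72 h lay wholly above those at 18 h for 1 probe and wholly below them for 7, together 2.48%. The 1 probe was that of Ucn, the stress peptide urocortin, at a difference of 0.10, and the 7 had differences of -0.26 (Cdkn2b) to -0.08 (Maged1). No probe of the 323 had positive effects in every pair at one time and negative effects in every pair at the other. In a count chosen after the data were seen, over all 2140 tested probes and the 3 or 4 pairs measured at each time, the pairs at 72 h lay above for 43 (2.01%) and below for 98 (4.58%).

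The genes of smallest p are given as values, since none of them passed the test. Herpud1, an ER membrane protein that helps pass misfolded proteins to degradation and is a known target of the unfolded protein response, had the smallest p of those higher at 72 h. Its tumor effects were 0.07, 0.55 and 0.21 in pairs 1, 2 and 4 at 72 h, against -0.27, -0.80 and -0.34 in pairs 1, 3 and 4 at 18 h. All 3 measured pairs were above 0 at 72 h and below 0 at 18 h. The means were 0.28 ± 0.25 at 72 h and -0.47 ± 0.29 at 18 h (SD, n = 3 each), a difference of 0.74 ± 0.16 (SE; limma adjusted p = 0.999988). An exact permutation test of the 6 pair values gave p = 0.1, the smallest that 3 against 3 allows. From the scans the log2 difference was 1.12 ± 0.26 (SE).

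The start of Herpud1 is shown because the unfolded protein response acts there through a known DNA element, the ER stress response element II (spelled ATTGGNCCACG). The window runs over 300 bases around the RefSeq start on the plus strand, chr8:94386179-94386478 of GRCm38.p6, with the element found by the search in capitals at bases 199 to 209 of the window.
Herpud1: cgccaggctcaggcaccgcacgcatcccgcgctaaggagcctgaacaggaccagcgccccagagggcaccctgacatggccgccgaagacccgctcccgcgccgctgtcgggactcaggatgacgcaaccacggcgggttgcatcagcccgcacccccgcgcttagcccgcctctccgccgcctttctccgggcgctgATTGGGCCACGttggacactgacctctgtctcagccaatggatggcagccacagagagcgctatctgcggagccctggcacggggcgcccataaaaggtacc
Both strands were searched, and 12 of 32851 such windows (0.0365%) hold the element. The first ER stress element (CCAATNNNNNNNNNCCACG) is in 39 of them (0.119%) and not in that of Herpud1. A match is a description of the letters and says nothing of which factor was bound.

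Sar1b, Srp72, Rab18 and Hsd17b12 were also among the 12 higher genes of smallest p. Every measured pair of these 4 was below 0 at 18 h. Among the 12 the same held for Herpud1, Zc3h15, Gclm, Arhgap27, Mpc1 and Ugdh, but not for Tsc22d1 and Rps12. The 12 were chosen on these same values for being higher at 72 h, which in part sets their signs at 18 h. The share over all tested probes was not counted. Sar1b, the small GTPase that starts the COPII vesicles leaving the ER, had effects of -0.18, -0.02, 0.04 and 0.20 in pairs 1 to 4 at 72 h, against -0.40, -0.38 and -0.20 in pairs 1, 3 and 4 at 18 h. The groups did not overlap, and the difference was 0.34 ± 0.10 (SE; exact permutation p = 0.0571, where 4 against 3 cannot go below 0.0286). From the scans the log2 difference was 0.24 ± 0.26 (SE), and the groups overlapped. Srp72, a subunit of the signal recognition particle that brings nascent secretory proteins to the ER, had -0.01, 0.03 and 0.07 at 72 h, against -0.19, -0.13 and -0.11 at 18 h. Rab18, a small GTPase of the ER and lipid droplets, had 0.01, 0.14 and 0.15 at 72 h, against -0.06, -0.31 and -0.07 at 18 h. Neither Srp72 nor Rab18 overlapped between the times, with differences of 0.17 ± 0.07 and 0.25 ± 0.09 (SE), the second of which was 0.16 without pair 3 at 18 h. In log2 ratios from the scans Srp72 overlapped, at 0.33 ± 0.25, and Rab18 did not, at 0.78 ± 0.23 (SE). Hsd17b12, a reductase of fatty acid elongation in the ER membrane, overlapped at 1 pair, with means of -0.04 ± 0.14 at 72 h (SD, n = 4) and -0.42 ± 0.28 at 18 h (SD, n = 3).

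The other 7 higher genes overlapped between the times. Mpc1, a subunit of the mitochondrial pyruvate carrier, had effects of -0.39, -0.27, 0.09 and 0.52 at 72 h, against -0.75, -0.78 and -0.21 at 18 h. Its difference of 0.57 ± 0.24 (SE) stood beside a wide spread at 72 h. Tsc22d1, a leucine zipper regulator of transcription, had -0.05, 0.57 and 0.07 at 72 h, against -0.71, -0.39 and 0.02 at 18 h, and its difference of 0.56 was 0.37 without pair 2 at 72 h. Gclm, the modifier subunit of the enzyme that limits glutathione synthesis, differed by 0.34 ± 0.12, and Ugdh, which makes the UDP-glucuronate used in conjugation, by 0.32 ± 0.14. The differences were 0.29 for Zc3h15, a zinc finger partner of a translation GTPase, 0.21 for Arhgap27 and 0.21 for the small ribosomal subunit gene Rps12. In log2 ratios from the scans Rps12 came to 0.01 and Arhgap27 to 0.06. Leaving out pair 1 at 18 h gave 0.12 for Rps12 and 0.20 for Ugdh, and leaving out pair 1 at 72 h gave 0.14 for Arhgap27.

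On the lower side the smallest p was that of Grcc10, a small gene of a gene-rich cluster. Its effects were -0.10, 0.01 and -0.18 in pairs 1, 2 and 4 at 72 h, against 0.26, 0.43 and 0.56 in pairs 1, 3 and 4 at 18 h. The pairs at 18 h were all above 0 and above every pair at 72 h, and the difference was -0.50 ± 0.10 (SE; limma adjusted p = 0.999988). From the scans the log2 difference was -0.48 ± 0.30 (SE), and the pairs overlapped. Actb, cytoskeletal actin and a common reference transcript, had -0.25, -0.13, -0.33 and -0.27 in pairs 1 to 4 at 72 h, against 0.05, -0.03 and 0.05 in pairs 1, 2 and 4 at 18 h. All 4 pairs at 72 h were below 0, and the difference was -0.27 ± 0.07 (SE; exact permutation p = 0.0571).

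Lifr, the receptor chain that joins gp130 to sense leukemia inhibitory factor, had effects of -0.22, -0.94 and -0.33 in pairs 1, 2 and 4 at 72 h, against 0.13, -0.04 and 0.00 in pairs 1, 3 and 4 at 18 h. The pairs did not overlap, and 1 library weighed on the size, since the difference of -0.53 ± 0.18 (SE) was -0.30 without pair 2 at 72 h. Nfkbil1, a relative of the inhibitors of NF-kB, overlapped at 1 pair, with means of -0.03 ± 0.11 at 72 h (SD, n = 4) and 0.35 ± 0.24 at 18 h (SD, n = 3). Cdkn2b, the cyclin-dependent kinase inhibitor p15, had -0.23, -0.47, -0.08 and -0.02 at 72 h, against 0.16, 0.04, -0.02 and 0.08 at 18 h. Of these 24 genes it was the only one measured in all 8 pairs without overlap, and the gap between the times was narrow. It had an exact permutation p of 0.0286, the smallest that 4 against 4 allows, and a limma adjusted p of 0.999988. Each of the 8 probes without overlap among the 323 (2.48%) reaches that permutation p, and Cdkn2b was chosen on these same values. Its difference of -0.26 was -0.17 without pair 2 at 72 h.

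Mdh2, the mitochondrial malate dehydrogenase, had effects of -0.14, -0.02, -0.06 and -0.04 at 72 h, against 0.08, 0.22 and 0.17 in pairs 1, 3 and 4 at 18 h. Every pair was below 0 at 72 h and every measured pair above 0 at 18 h, and the difference was -0.22 ± 0.07 (SE). Cyp2c40, a cytochrome P450 of arachidonic acid metabolism, differed by -0.23 ± 0.07, and Eif3c, a subunit of translation initiation factor 3, by -0.26 ± 0.09 (SE), neither with overlap. The differences of the others were -0.17 for Narf, which binds prenylated prelamin A, -0.22 for the SH3 adaptor Nckipsd, -0.25 for the filament-forming GTPase Septin6 and -0.28 for the intramembrane protease Sppl3. Of these only Septin6 overlapped between the times. Among the lower genes without overlap, Actb, Cdkn2b, Cyp2c40, Nckipsd and Sppl3 also overlapped in log2 ratios from the scans, as Grcc10 did. Narf, Mdh2, Eif3c and Lifr did not.

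**Figure D2:**
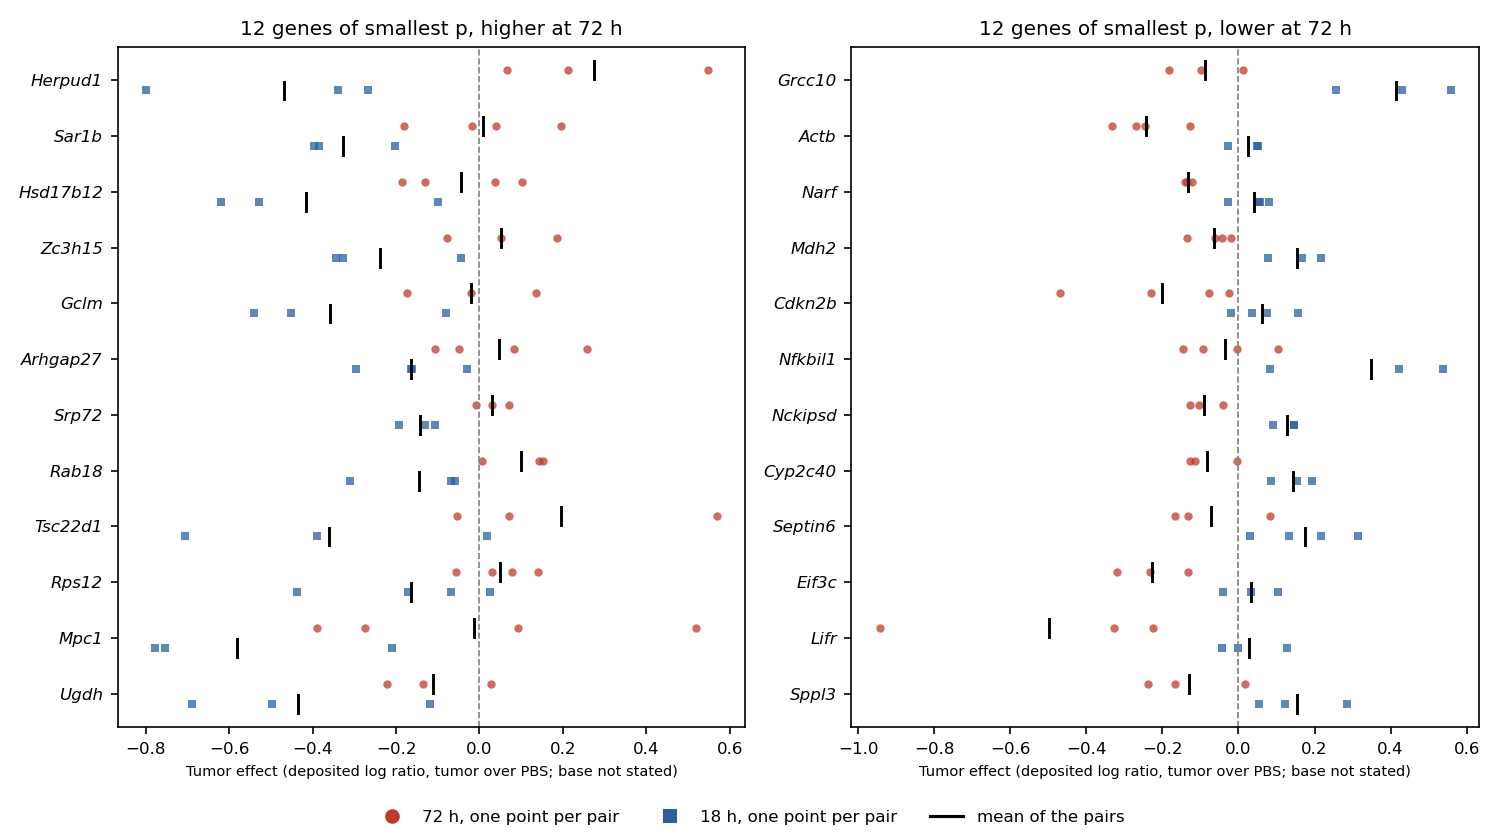
Tumor effects of the 12 genes of smallest p on each side (x axis, deposited log ratio of tumor over PBS), one point per pair, 72 h as red circles above 18 h as blue squares, with black ticks at the means. At 18 h the genes on the left average below 0 and those on the right above it, whereas means at 72 h on the left run from -0.11 to 0.28. The genes were chosen by p and direction on these same values, so the sides at 18 h follow in part from the choice.

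The list of ER stress and unfolded protein response genes had the highest median difference of the 21 lists with at least 5 tested members, 0.14 against -0.0062 over all probes. Of its 15 tested members 10 were higher and 5 lower, where 994 of 2140 probes (46.4%) were higher, and none passed the adjusted test. At an unadjusted p under 0.05 there were 3, all higher: Herpud1 and, named after their values were seen, Syvn1 and Dnajb9. Syvn1, the ubiquitin ligase Hrd1 of ER-associated degradation, had effects of 0.68, 1.26 and -0.12 in pairs 1, 2 and 4 at 72 h, against 0.14, 0.28, -0.42 and -0.01 in pairs 1 to 4 at 18 h. Pairs 1 and 2 at 72 h were above every pair at 18 h, and pair 4 was not. Dnajb9, an ER cochaperone of the sensor Ern1, had 0.35, 0.44 and -0.04 in pairs 1, 2 and 4 at 72 h, against -0.14, -0.84 and 0.09 in pairs 1, 3 and 4 at 18 h.

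The ER genes did not move together in every pair. The list's median effect was 0.07, 0.15, -0.03 and -0.19 in pairs 1 to 4 at 72 h, against -0.09, 0.06, -0.08 and -0.06 at 18 h. Pairs 1 and 2 at 72 h were positive and pair 4 at 72 h was the lowest of the 8, so that the times overlapped. Among members measured in all 8 pairs, Manf, a secreted ER stress factor, had 0.16, 0.61, 0.24 and -0.46 at 72 h, against -0.68, 0.26, -0.22 and -0.07 at 18 h, and its difference of 0.31 ran from 0.15 to 0.51 when 1 pair was left out. Canx, the lectin chaperone calnexin, differed by 0.17 ± 0.15 (0.01 without pair 1 at 18 h), and P4hb, a protein disulfide isomerase, by -0.25 ± 0.14 (SE). The ER chaperones Pdia6 (-0.02), Hyou1 (0.02) and Dnajc3 (-0.001), named after their values were seen, had differences near 0. Over replicates 1 and 2 alone the list's median was 0.26, over replicates 3 and 4 alone -0.0035, and over the members with all 8 pairs -0.02. The first ER stress element was in the windows of 6 of the 13 members that had one: Canx, Creld2, Dnajc3, Hsp90b1, Pdia6 and Syvn1. The second was in 2, Dnajb11 and Herpud1. Whether members with an element differed more than those without was not tested.

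**Figure D3:**
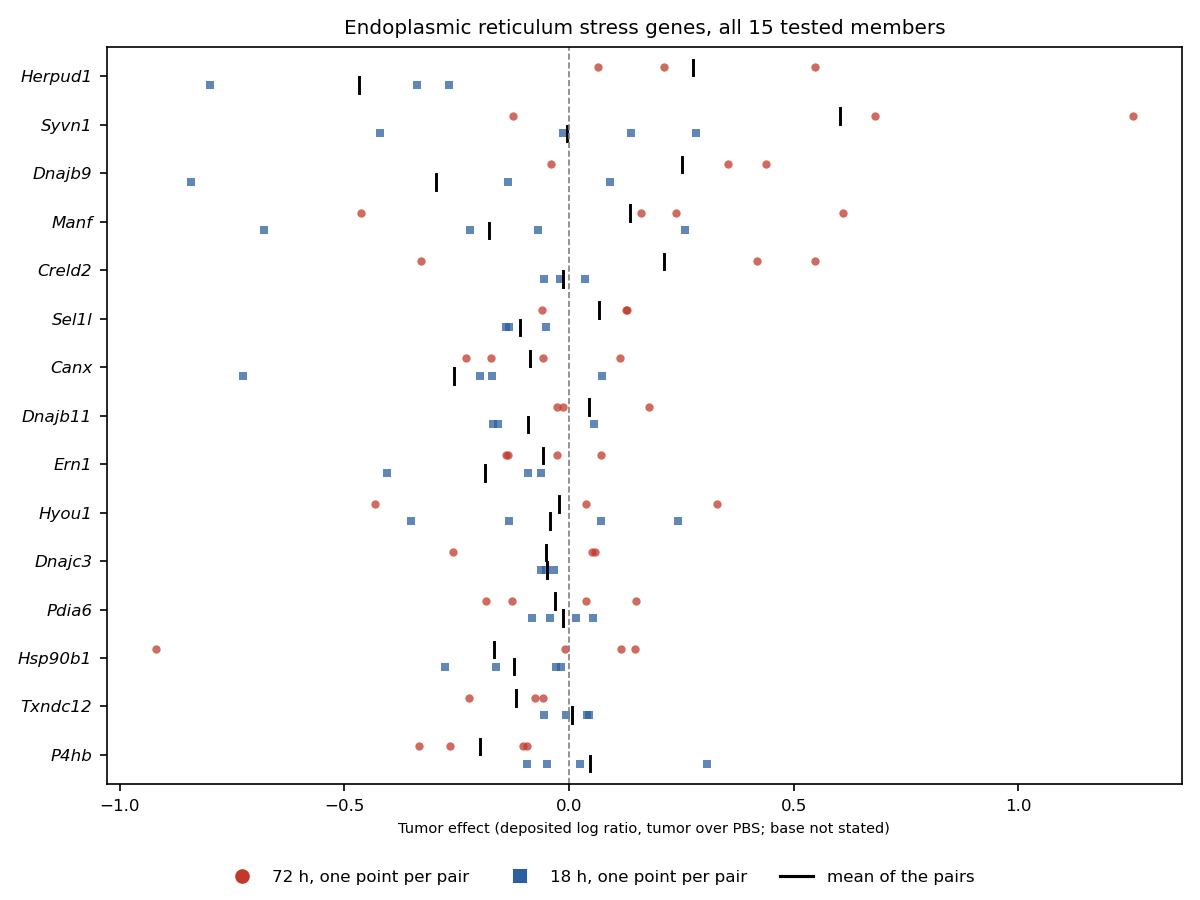
Tumor effects of all 15 tested ER stress genes (x axis, deposited log ratio of tumor over PBS), ordered by their difference, with 72 h as red circles above 18 h as blue squares, one point per pair, and black ticks at the means. Herpud1 is 1 of 2 members separated between the times, where 141 of all 2140 tested probes were. Pair 4 at 72 h lies to the left for Manf (-0.46) and Hsp90b1 (-0.92).

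No gene of the acute phase, complement or coagulation lists had an unadjusted p under 0.05. Of 7 tested positive acute phase genes, whose products rise in plasma in inflammation, 6 were lower at 72 h than at 18 h, with a median of -0.17, the largest in size of the 21 lists. The list's median effect was 0.06, -0.17, -0.07 and -0.10 in pairs 1 to 4 at 72 h, against 0.04, 0.09, 0.50 and -0.12 at 18 h, and pair 3 at 18 h was the highest of the 8. Without that pair the list's median difference was -0.0005. Fga, the fibrinogen alpha chain, had -0.06, -0.11, 0.11 and -0.06 at 72 h, against 0.04, -0.05, 0.66 and -0.08 at 18 h, so that 1 pair at 18 h set its mean. Crp, the pentraxin C-reactive protein, was the member with a higher value, with -0.03, -0.23, 0.02 and -0.003 at 72 h, against -0.14, -0.20, -0.14 and -0.62 at 18 h, and its difference was 0.10 without pair 4 at 18 h. Complement components were higher for 6 and lower for 6, with Cfi, the protease that inactivates C3b, at 0.11 ± 0.11 and C4bp, its cofactor, at 0.02 ± 0.11 (SE). Coagulation genes were higher for 6 of 9 (median 0.06), and F13b, the carrier subunit of factor XIII, differed by 0.17, the cofactor F5 by 0.12 and the kininogen Kng1 by 0.06.

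Among the genes of protein turnover, all 10 tested proteasome subunits had a lower tumor effect at 72 h, with 0 at an unadjusted p under 0.05 and a median of -0.05, and the range was -0.26 to -0.02. Psma3, an alpha ring subunit, had -0.04, -0.35, 0.15 and 0.13 at 72 h, against 0.04, -0.15, 0.17 and 0.01 at 18 h. By pair the median of the subunits was -0.03, 0.02, 0.15 and -0.03 at 72 h, against -0.004, -0.09, 0.20 and 0.02 at 18 h, which overlapped, and its value in pair 3 at 72 h came from 1 subunit. Without pair 3 at 18 h the list's median difference was 0.0041, on the other side of 0. Cytosolic ribosomal protein genes were higher for 10 and lower for 11 of 21 (median -0.0079), with Rps29 at 0.19 ± 0.11 and Rpl37 at -0.18 ± 0.20 (SE). Autophagy and lysosome genes were higher for 8 of 12 (median 0.04), although Atg3, the enzyme that joins LC3 to lipid, had 0.06, 0.07, -0.13 and -0.12 at 72 h, against 0.09, 0.17, 0.07 and 0.27 at 18 h. Sqstm1, the autophagy receptor p62, differed by -0.07.

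Among the energy pathways, mitochondrial oxidative phosphorylation had the largest number of tested genes, with 18 of 38 genes higher, 20 lower, 0 at an unadjusted p under 0.05 and a median of -0.0079. Ndufa8, a complex I subunit, had 0.08, -0.01, 0.02 and -0.14 at 72 h, against 0.11, 0.09, 0.13 and 0.11 at 18 h. Its pairs at 72 h were all below those at 18 h. Ndufb10, also of complex I, differed by -0.12 and Sdhd, a membrane anchor of complex II, by 0.09, both with overlap. Fatty acid oxidation genes were higher for 4 of 9 (median -0.0051), with the omega-hydroxylase Cyp4a10 at 0.03 ± 0.24 (SE).

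Genes of glucose handling were higher for 5 of 8 (median 0.04), but the median was -0.17 in log2 ratios from the scans and -0.06 without pair 1 or without pair 4 at 18 h. Pck1, the enzyme that commits to gluconeogenesis, had -0.05, -0.20, 0.29 and 0.12 at 72 h, against -0.32, -0.10, -0.38 and -1.15 at 18 h. The groups overlapped only through pair 2 of each time, and the difference was 0.53 ± 0.28 (SE; exact permutation p = 0.0571), or 0.30 without pair 4 at 18 h. The glycogen branching enzyme Gbe1 differed by 0.08 and the pyruvate carboxylase Pcx by -0.06. Amino acid catabolism and urea cycle genes were higher for 12 of 20, with a median of 0.05. Their differences ran from -0.21 to 0.70, none at an unadjusted p under 0.05. Glud1, glutamate dehydrogenase, had -0.51, -0.71, -0.04 and 0.22 at 72 h, against -0.66, 0.06, -0.46 and -0.33 at 18 h, a spread wider than its difference of 0.09. Hal, the first enzyme of histidine breakdown, also differed by 0.09.

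Lipid genes were mixed. Fatty acid and triglyceride synthesis genes were higher for 4 and lower for 8 of 12 (median -0.03), with Thrsp, a lipogenic regulator, and Plin2, a lipid droplet coat protein, lower at an unadjusted p under 0.05. Elovl2, an elongase of polyunsaturated fatty acids, had -0.29, -0.08, -0.08 and 0.17 at 72 h, against -0.91, -0.08, -0.33 and -0.04 at 18 h, and its difference of 0.27 was 0.08 without pair 1 at 18 h. The acyltransferase Dgat2 differed by -0.02. Cholesterol synthesis genes were higher for 5 of 9 (median 0.07), with the desaturase Sc5d at 0.12 ± 0.22, the isomerase Ebp at -0.09 ± 0.11 and the sterol reductase Tm7sf2 at -0.02 ± 0.07 (SE). Bile acid synthesis and transport genes were higher for 4 and lower for 9 of 13 (median -0.06), with Cyp27a1, the sterol 27-hydroxylase, at -0.18 the 1 member at an unadjusted p under 0.05. Of the others, Hsd3b7, a dehydrogenase of bile acid synthesis, differed by 0.09 and the phospholipid exporter Abcb4 by -0.0074.

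Drug metabolism and antioxidant genes were mixed at 18 h. The median effect of the P450 genes was 0.004, -0.03, 0.11 and -0.05 in pairs 1 to 4 at 18 h. It was -0.23, 0.08, -0.31 and -0.06 for conjugation and esterase genes, and -0.37, -0.04, -0.12 and -0.05 for antioxidant genes. Cyp3a25, a cytochrome P450 of drug and steroid oxidation, had effects of -0.57, -0.53, 0.15 and 0.14 at 72 h, against -1.28, 0.09, -0.81 and -0.51 at 18 h. It was negative in 2 of 4 pairs at 72 h and in 3 of 4 at 18 h, and its difference was 0.43 ± 0.26 (SE), or 0.21 without pair 1 at 18 h and 0.67 without pair 2 at 18 h. The P450 list was higher for 4 of 9 (median -0.03), with Cyp2j5 at -0.13 and Cyp4f13 at 0.02. Conjugation and esterase genes were higher for 7 of 10 (median 0.08), with the flavin monooxygenase Fmo1 at 0.08. Antioxidant genes were higher for 5 of 7 (median 0.12), with Gclm the 1 member at an unadjusted p under 0.05, but the median was -0.04 in log2 ratios from the scans and -0.0054 without pair 1 at 18 h. Txn1, cytosolic thioredoxin, had -0.06, -0.07, -0.02 and 0.05 at 72 h, against -0.37, -0.12, -0.15 and -0.05 at 18 h, a difference of 0.14 that was 0.08 without pair 1 at 18 h. Its mitochondrial relative Txn2 differed by 0.12. Heat shock genes were higher for 5 of 7 (median 0.09), inflammatory signalling genes for 3 of 7 (median -0.02) and iron and heme genes for 0 of 6 (median -0.06). The inflammatory list held 2 genes at an unadjusted p under 0.05, Nfkbil1 and the NF-kB subunit Rela at -0.19. Alas1, the first enzyme of heme synthesis, had 0.05, -1.35 and -0.66 in pairs 1, 2 and 4 at 72 h, against 0.05, -0.19 and -0.23 in pairs 1, 3 and 4 at 18 h. Thrsp, Plin2, Cyp27a1, Rela, Ucn, Maged1 and Alas1 were named after their values were seen.

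**Figure D4:**
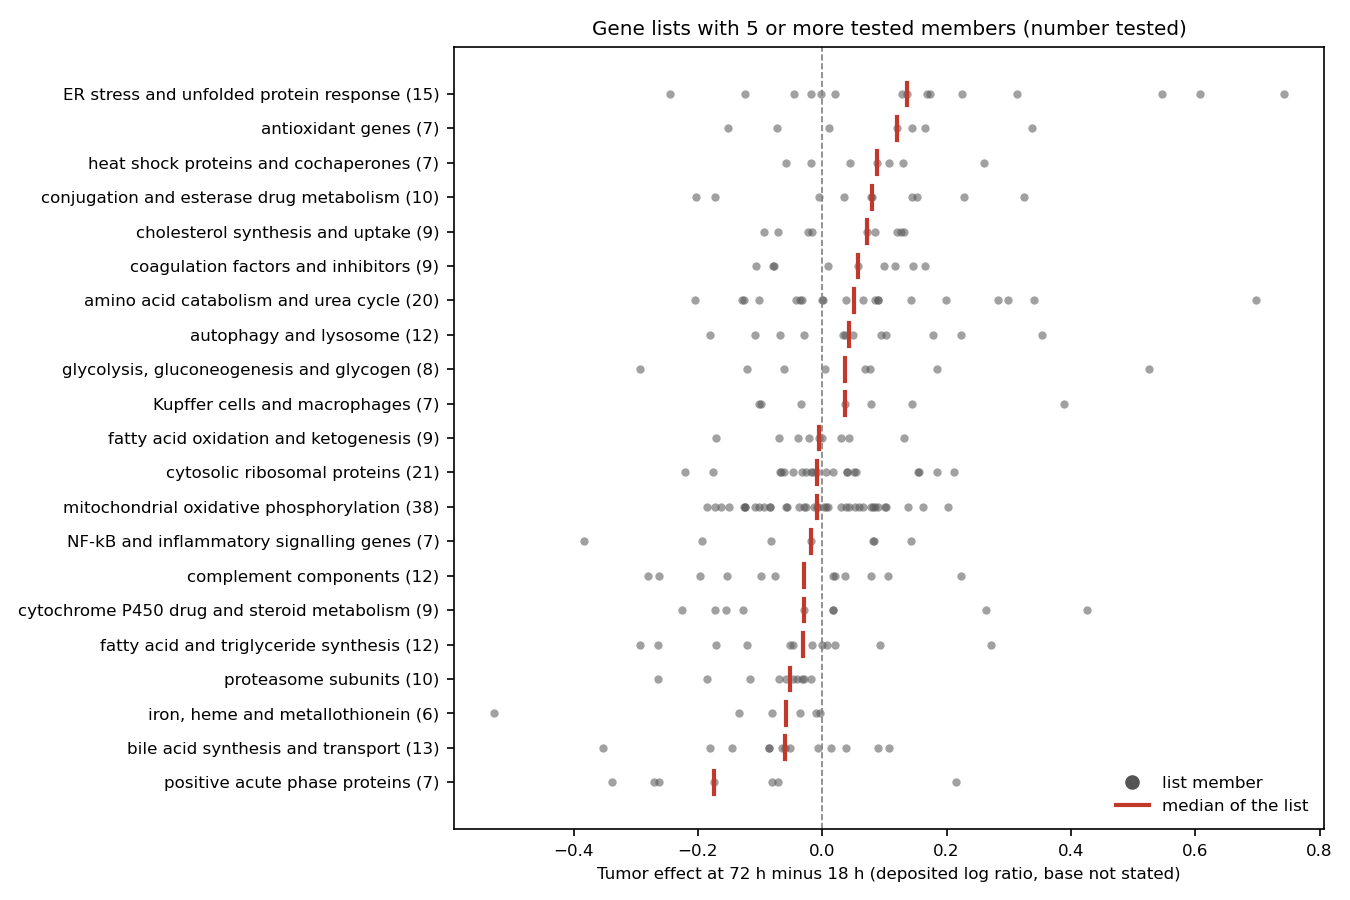
Differences of tumor effects (72 h minus 18 h, x axis, deposited log ratio units) for the tested members of 21 gene lists, one point per gene, with a red bar at each list's median and the number tested in brackets. Medians run from -0.17 (positive acute phase proteins) to 0.14 (ER stress), while single members run from -0.53 to 0.74.

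The sign of the median difference changed in 15 of the 21 lists when a single pair was left out, the exceptions being the acute phase, complement, ER stress, heat shock, bile acid and conjugation lists. With log2 ratios from the scans it changed in 5 lists: antioxidant, glucose handling, bile acid (0.01), fatty acid oxidation and ribosomal protein genes.

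Lists with fewer than 5 tested genes included interferon-stimulated genes, with 2 of 3 higher, and cell cycle genes, with 3 of 4 higher, and none of these passed the test.

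Markers of cells other than hepatocytes were measured in small numbers. Kupffer cell and macrophage markers were higher for 4 of 7, with a median difference of 0.04 and a median effect of 0.13, 0.16, 0.02 and -0.10 in pairs 1 to 4 at 72 h (pair 3 from 1 gene), against 0.0002, 0.08, 0.17 and 0.06 at 18 h. Of the 2 hepatocyte markers tested, Hnf4a, a transcription factor that defines the hepatocyte, differed by 0.02 and the receptor subunit Asgr2 by -0.09. Neutrophil, endothelial and stellate markers had 2 tested genes each, cholangiocyte markers 1, and lymphocyte markers 0 of 11 on the array. In whole liver RNA fewer cells of a type and less RNA per cell cannot be told apart, and the part of any cell type in the values above was not tested.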

How the data were processed

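Liver RNA pairs were grouped by the time point in the labels. Each array has 3 tables of spots, which hold background-corrected intensity in 2 channels and a saturation factor, a fraction from 0 to 1, per the file headers. The image software is not given in the sources used here. The value table deposited by the authors holds their own log ratios, with base, centring and direction unstated. The plan took them as log2, and the fit was kept. Arrays there already run the same way across dye swaps, and array medians lay between -0.0334 and 0.00949. Scan positions were tied to its probes by block order, with correlations of 0.506 to 0.847 per array.

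The 2 arrays of a pair were averaged where both had a value. Probes with at least 3 of 4 pairs at 72 h and at 18 h were tested with limma 3.58.1 (R 4.3.3, package data.table in version 1.17.8, lmFit, eBayes) over all 12 pairs of 3 times, so that the 192 h pairs add to the estimate of spread. P-values are two-sided, adjusted by Benjamini-Hochberg over 2140 probes, with a threshold of 0.05. The scan alternative took log2 ratios after loess (span 0.3), leaving out saturated scans. The fit was tested on simulated data.

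Named genes were the 12 of smallest p on each side and, for each of 21 lists with at least 5 tested members (of 33 lists), the 3 of largest difference with all 8 pairs measured. A part of the rule for probes of opposite sign in every pair named none. Members and lists were chosen with earlier results of these data known. Of 10080 probes, 9066 had 1 symbol in GEO's platform annotation, 12 several and 1002 none, and 8977 Entrez identifiers were matched to RefSeq names (GRCm38.p6). Of the tested probes 148 had no symbol and 2 had several, and these are not named. Promoter windows were those of RefSeq.

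Replicates with the same number at both times were taken as unpaired. Their deviations correlated at 0.19, -0.26, 0.02 and 0.05 for numbers 1 to 4, which does not settle whether the numbers paired the samples. Alternatives covered the value source, centring, scaling, filters, blocks, weights, moderation and leaving out each pair.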

Additional observations from a re-analysis of the deposited data

Results flagged for a closer look

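In 2 genes 1 pair at 18 h lay far from the other 3. Crp had a tumor effect of -0.618 in pair 4 at 18 h, while the nearest of the others was -0.205. Fga had a tumor effect of 0.663 in pair 3 at 18 h, where the nearest of the others was 0.0414. These were 2 of 88 groups of 4 pairs examined, and chance alone marks about 1 group in 20 by this measure. The gene differences in the report include these pairs.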

How the results depend on the processing

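Under each of 24 alternatives 0 probes were called by limma, and the smallest adjusted p was 0.347, with scale normalization between arrays. The count at an unadjusted p under 0.05 was 55 of 2140 probes (2.57%), and most of these alternatives changed how many probes were tested. It came to 144 of 3339 (4.31%) with scan log2 ratios, 38 higher and 106 lower. With pairs taken from either array it was 235 of 6663 (3.53%), and with 2 pairs required at each time 138 of 4978 (2.77%). With all 4 pairs required it was 3 of 323 (0.93%), and with array weights 90 of 2140 (4.21%). With only replicates 1 and 2 it was 11 of 778 (1.41%), 7 higher and 4 lower. With only replicates 3 and 4 it was 38 of 629 (6.04%), 17 higher and 21 lower, the highest share of all alternatives. Both required 2 pairs. Leaving out each pair in turn gave 24 to 74, with 24 without pair 3 at 18 h and 31 without pair 2 at 72 h; the cause was not tested. With the replicate block it was 40 (26 higher, 14 lower), and the block changed no call. The correlations of deviations had both signs over the numbers. They were taken over probes that are no independent replicates, so they cannot settle whether the numbers paired the samples.

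Probes without overlap numbered 8 of 323 (2.48%), against 59 of 2344 with pairs from either array. Over the 3 or 4 pairs measured at each time they numbered 141 of 2140, a count chosen after seeing the data. Fewer pairs make separation more likely, so that count cannot be set beside the 8. Probes of opposite sign in every pair numbered 0 of 323, against 2 of 536 with scan ratios and 12 of 2344 with pairs from either array. The 24 genes of smallest p kept their sign in 520 of 520 values. They were chosen by p on the same arrays that the alternatives use, so kept signs follow largely from that choice. Among 37 list members given without a test, 54 of 888 values had the other sign, in 24 of the genes. The ER stress median ran from -0.02 to 0.26 and was negative in 2 of 24 alternatives. The proteasome median ran from -0.17 to 0.05 and was positive in 2 of 22. The acute phase median stayed below 0 in 23 of 23, but it was only -0.0005 without pair 3 at 18 h. Of 21 list medians 19 changed sign under at least 1 alternative, the acute phase and heat shock lists excepted. With scan ratios the antioxidant median was -0.04 and the glucose handling median -0.17, where the deposited values gave 0.12 and 0.04. The number of arrays and their unequal coverage limit the values.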
